A study of Mus musculus with 9 samples.

Results

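Genes of the caveolar coat and of the dystroglycan-sarcoglycan complex were examined as a set of 10 among 21853 protein-coding genes of the mouse. The set held the caveolins Cav1, Cav2 and Cav3, the cavins Cavin1 and Cavin2, the dystroglycan gene Dag1, and the sarcoglycans Sgca, Sgcb, Sgcd and Sgce. The genes were chosen by name and the rule used no measured value, but earlier results of these data were known at the time. For each gene, all peaks overlapping the gene body or the 25 kb on either side of it were collected from 8 peak lists, and this span is called the locus of the gene. A peak was a promoter peak if it overlapped the window within 1 kb of any protein-coding start of that gene, an intragenic peak if it otherwise overlapped the gene body, and a flanking peak if it lay outside it.

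The peaks came from ChIC-Seq, in which an antibody bound to protein A-MNase makes the nuclease cut chromatin where the antibody sits, of primary muscle cells of the oviduct. The cells were taken from WT mice, 8 to 12 weeks old according to the labels, on D2 of pregnancy after mating with stud males, and the labels gave no strain. There were 3 libraries for H3K27ac, 3 for H3K4me1 and 3 for IgG, each of 50000 fixed cells. All groups shared the genotype, the day and the preparation: oviducts were cut up, digested with enzymes, filtered and plated for a few hours, and no sorting step was named. Each H3K27ac and H3K4me1 library had a peak list of its own, and each mark had a pooled list called on its 3 libraries. The IgG libraries served as controls of the calls and had no list. Because nothing in the labels tied the libraries to separate animals or cultures, the spread between replicates may be technical.

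The lists were permissive. In the replicate lists, between 40551842 and 78891920 fragments of the mark were set against 3110985 to 3713369 of IgG, with p-value cutoffs of 0.05 for the core and 0.1 for the edges of a broad peak. The replicate lists held 93684 to 152889 peaks, with median widths of 593 to 837 bp and median −log10 p-values of 1.01 to 1.16. The H3K27ac list of replicate 1 was the longest and also reached lowest, with a weakest peak at 4.03 times the mean coverage of the genome against 4.61 to 4.94 times in the other replicate lists. H3K27ac replicate 2 shared its IgG control with H3K4me1 replicates 1 and 2, and H3K27ac replicate 3 shared its own with H3K4me1 replicate 3. In bulk lists such as these, a mark present in more cells and more of a mark in each cell cannot be told apart.

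Caveolae are flask-shaped pits of the plasma membrane, abundant in smooth muscle, fat and endothelium, where they buffer membrane tension and gather signaling proteins and channels. CAV1 forms the membrane scaffold with CAV2, CAV3 takes that place in striated muscle, and the cavins, with CAVIN1 as the essential member, form a coat on the cytoplasmic side. Dystroglycan, encoded by Dag1, links laminin outside the cell to dystrophin or utrophin inside it, and the sarcoglycans stand beside it in the membrane. SGCA is known chiefly from striated muscle, whereas SGCE takes part in the complex of smooth muscle with SGCB and SGCD. H3K27ac marks active promoters and enhancers, and H3K4me1 is typical of enhancers and of the shoulders of active promoters, where it is usually low at the start itself.

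The sequence just before the start differed widely between the members. It is shown here for Cav1, Cav2, Cavin1 and Dag1, which had an H3K27ac peak at the promoter in all 3 replicates, for Cavin2, whose peaks began past the start in some lists, and for Cav3 and Sgca, whose starts lay outside every peak. Each run is the 250 bases up to the base before the start, 5′ to 3′ on the strand of the gene, on GRCm38.p6, and capitals mark CpG. The runs were taken from RefSeq promoters, except that of Cavin1, which was read from the genome upstream of its GENCODE start.
Cav1 (chr6:17306085-17306334, plus strand): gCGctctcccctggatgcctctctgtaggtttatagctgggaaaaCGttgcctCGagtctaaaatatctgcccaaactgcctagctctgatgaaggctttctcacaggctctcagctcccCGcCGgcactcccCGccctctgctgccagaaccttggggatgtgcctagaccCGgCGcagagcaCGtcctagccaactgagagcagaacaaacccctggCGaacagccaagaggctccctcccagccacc
Cav2 (chr6:17280935-17281184, plus strand): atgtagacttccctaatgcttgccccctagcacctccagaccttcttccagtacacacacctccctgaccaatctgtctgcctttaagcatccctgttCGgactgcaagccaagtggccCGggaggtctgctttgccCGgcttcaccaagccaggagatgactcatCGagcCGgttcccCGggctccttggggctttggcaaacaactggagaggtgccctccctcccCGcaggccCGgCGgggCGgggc
Cav3 (chr6:112459255-112459504, plus strand): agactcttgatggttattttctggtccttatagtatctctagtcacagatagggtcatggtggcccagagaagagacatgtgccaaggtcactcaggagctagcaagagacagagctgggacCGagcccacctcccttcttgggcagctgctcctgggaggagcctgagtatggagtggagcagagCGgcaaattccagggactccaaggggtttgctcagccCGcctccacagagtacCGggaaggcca
Cavin1 (chr11:100970888-100971137, minus strand): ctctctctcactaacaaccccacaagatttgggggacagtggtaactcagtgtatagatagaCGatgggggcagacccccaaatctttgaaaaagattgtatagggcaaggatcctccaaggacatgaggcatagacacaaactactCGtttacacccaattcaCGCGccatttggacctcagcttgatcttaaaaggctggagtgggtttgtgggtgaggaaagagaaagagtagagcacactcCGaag
Cavin2 (chr1:51288876-51289125, plus strand): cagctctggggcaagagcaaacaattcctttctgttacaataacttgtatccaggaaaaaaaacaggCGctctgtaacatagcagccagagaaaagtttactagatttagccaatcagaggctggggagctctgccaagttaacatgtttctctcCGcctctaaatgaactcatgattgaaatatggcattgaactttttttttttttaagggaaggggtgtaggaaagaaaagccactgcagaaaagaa
Dag1 (chr9:108263959-108264208, minus strand): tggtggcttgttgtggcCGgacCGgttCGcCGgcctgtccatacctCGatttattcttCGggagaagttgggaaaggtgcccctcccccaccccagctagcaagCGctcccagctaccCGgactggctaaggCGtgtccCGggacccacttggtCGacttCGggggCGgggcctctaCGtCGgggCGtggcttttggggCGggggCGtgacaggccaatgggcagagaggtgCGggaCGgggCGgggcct
Sgca (chr11:94976328-94976577, minus strand): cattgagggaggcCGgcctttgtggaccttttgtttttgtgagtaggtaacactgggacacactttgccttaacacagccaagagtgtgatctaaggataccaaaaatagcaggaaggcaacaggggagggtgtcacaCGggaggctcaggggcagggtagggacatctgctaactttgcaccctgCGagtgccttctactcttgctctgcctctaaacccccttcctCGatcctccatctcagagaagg

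RefSeq gave a promoter of 300 bases, from 250 before to 50 after the start, for 9 of the 10 members in 12 entries, and Sgce was not among them. The median promoter of 32851 in the table held 7 CpG. The Dag1 entries held 47 and 30, and 98.6% and 88.3% of promoters held fewer. Sgcb held 24, the Cavin1 entries 18 and 17, Cav2 16, the Cav1 entries 13 and 16, and Sgcd 12. Cav3 with 6, Cavin2 with 4 and Sgca with 4 lay below the median. The RefSeq starts of Cavin1 lie inside the GENCODE gene, so its counts are of another place than the run printed above, which holds 5 CpG. The letters GGGCGG, a GC box that itself contains a CpG, occurred on either strand in 8 of the 12 member entries and in 35.7% of all promoters. TATAAA occurred in 2 of them, the first Cav1 entry and Sgcb, against 13.6% of all. TGANTCA, letters that take in the core TGACTCA recognized by AP-1, occurred in 1, that of Cav2, against 7.81%. A CArG box, the letters read by SRF in smooth muscle promoters, was in 0 of the 12 and in 1.63% of all promoters.

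The first question was which members carried each mark at a promoter. H3K27ac was present at the promoter in all 3 replicates for 5 of 10 members, Cav1, Cav2, Cavin1, Sgce and Dag1, where 45.9% of all protein-coding genes met the same condition. H3K4me1 was present in all 3 for 3 members, Cav1, Cav2 and Dag1, against 27.9% of all genes, and these 3 also carried both marks in all 6 lists, against 24.3%. Cav3 and Sgca had no promoter peak in any of the 6, as did 32.8% of all genes. These shares lay close to those of all genes, so the counts alone did not set the members apart. In the pooled lists 7 members had an H3K27ac promoter peak and 8 an H3K4me1 promoter peak, against 56.2% and 56.3% of all genes, with Sgcd in the H3K4me1 list alone. The H3K4me1 count was 5 without H3K4me1 replicate 3, and with windows of 3 kb it was 7, with both marks at 5. When only peaks with −log10 p-values from 1.3 up were kept, the H3K27ac count was 3 and the count with both marks was 0. No share of all genes is given for fewer replicates, for windows of 3 kb or for this filter. Those counts therefore cannot be set against the shares above.

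Between these ends, 5 members were marked in part of the lists. Cavin1 and Sgce had promoter H3K4me1 in 2 of 3 replicates beside H3K27ac in 3. Cavin2 had each mark in replicates 1 and 3, and Sgcb had each mark in replicates 1 and 2. Sgcd had H3K27ac in 2 replicates and H3K4me1 in 1. The absences therefore fell on the same replicate number in both marks for Cavin2 and Sgcb; the lists of replicate 2, and those of replicate 3, shared an IgG library.

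**Figure D1:**
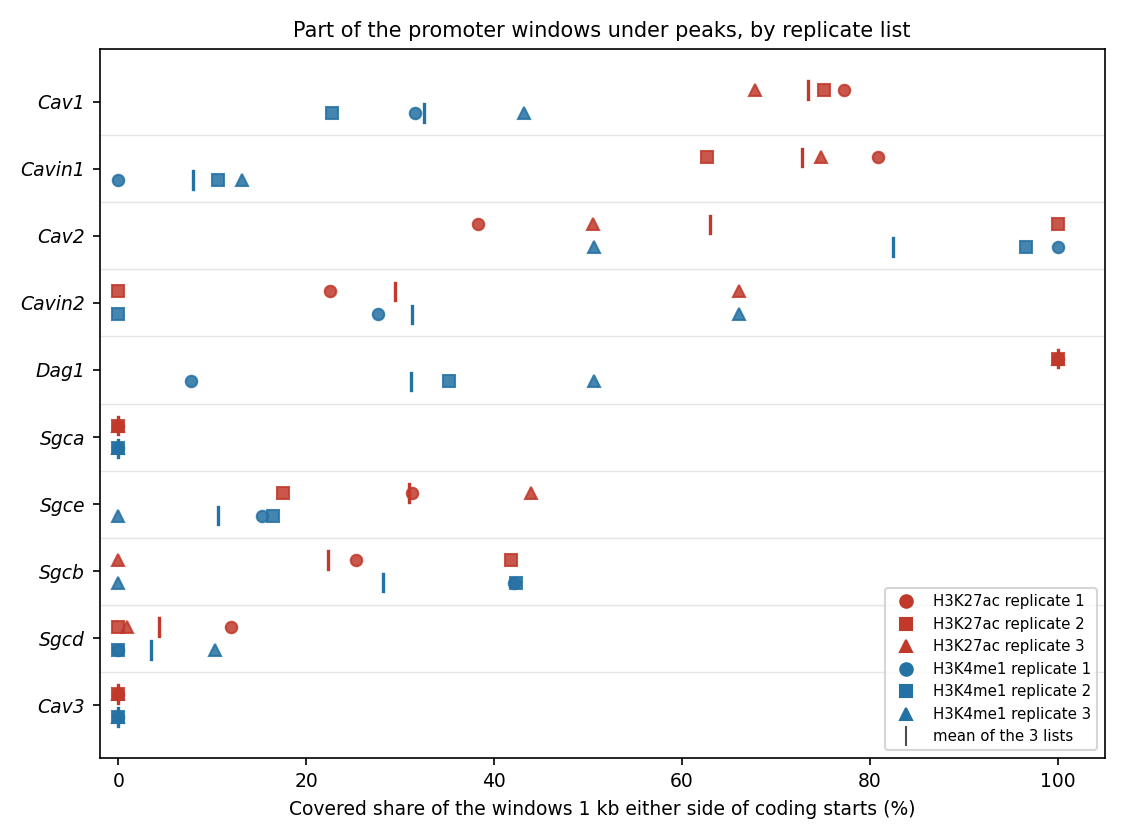
Share of the promoter windows covered by peaks (percent, x axis) for each of the 10 members (y axis); red symbols are H3K27ac lists and blue symbols H3K4me1 lists, with a circle, square and triangle for replicates 1, 2 and 3 and a bar at the mean. Dag1 stands at 100% in all 3 H3K27ac lists, Cavin1 is at 62.7% or more in H3K27ac and at 13.2% or less in H3K4me1, and Cav3 and Sgca are at 0 in every list.

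How much of the promoter windows each mark covered was compared next. The H3K27ac lists all covered more than the H3K4me1 lists for 4 members, Cav1, Cavin1, Sgce and Dag1, against 26.2% of all genes, and the reverse held for 0 members, against 1.71% of all genes. Both counts lay near the share of all genes. The median over the 10 members of the mean covered share was 30.2% in H3K27ac and 19.4% in H3K4me1, against 15.6% and 4.47% over all genes. With the median taken in each list first, it was 28.3%, 29.7% and 47.3% in H3K27ac replicates 1, 2 and 3 and 11.5%, 13.5% and 11.7% in those of H3K4me1, and in the pooled lists it was 60.7% and 31.1%. Differences were tested by an exact two-sided permutation test. With 3 lists in each group there are 20 ways to divide them and p cannot go under 0.1, so no difference could pass 0.05.

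Dag1, which encodes both subunits of dystroglycan, had the fullest H3K27ac cover. Its window, which holds 6 coding starts, was covered to 100%, 100% and 100% in H3K27ac replicates 1, 2 and 3 and to 7.73%, 35.2% and 50.7% in those of H3K4me1. Every H3K27ac list lay above every H3K4me1 list, with a mean difference of 68.8 percentage points (exact permutation p = 0.1, Benjamini-Hochberg adjusted p = 0.358 over all genes). The H3K27ac peaks were 5134, 5743 and 5949 bp wide, wider than 98.6%, 98.7% and 99.0% of the peaks of their lists, with coverage of 10.9, 11.6 and 9.31 times the genome mean. H3K4me1 stood on both sides of the start and left it free in all 3 lists. Its nearest peaks ended 127, 210 and 245 bp upstream of the start and resumed 1437, 1418 and 866 bp downstream of it. Counted from the start, the stretch shared by all 3 H3K27ac lists ran from −1703 to 3430 bp, and those of H3K4me1 ran from −300 to −245 bp and from 1437 to 4356 bp. The H3K27ac peak thus spanned the CpG-rich start, whose 250 bases printed above hold 21 CpG.

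**Figure D2:**
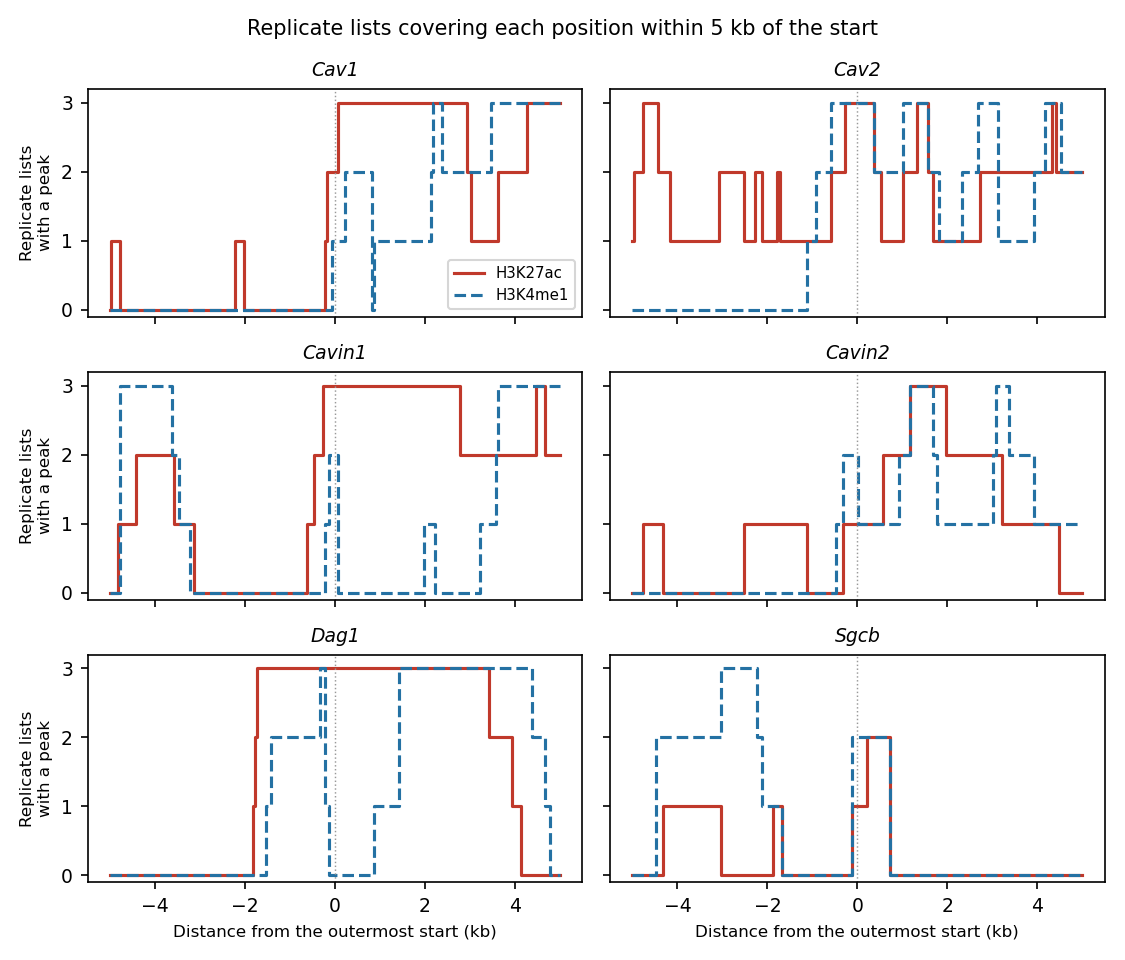
Number of replicate lists (0 to 3, y axis) with a peak at each distance from the outermost coding start (x axis, from 5 kb upstream to 5 kb downstream along the gene) for Cav1, Cav2, Cavin1, Cavin2, Dag1 and Sgcb, red and solid for H3K27ac, blue and dashed for H3K4me1. H3K27ac fills the start of Dag1 and Cavin1 in all 3 lists, H3K4me1 leaves that of Dag1 free and has short peaks at that of Cavin1 in 2 lists, both marks fill the start of Cav2, and in Cavin2 the stretch shared by all 3 lists begins 1177 bp past the start for H3K27ac and 1188 bp past it for H3K4me1.

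Cavin1, the cavin without which caveolae do not form, also had more H3K27ac than H3K4me1 at its start. Its window was covered to 80.9%, 62.7% and 74.8% in H3K27ac replicates 1, 2 and 3 and to 0%, 10.6% and 13.2% in those of H3K4me1. The groups did not overlap, and the means differed by 64.8 percentage points (exact permutation p = 0.1, adjusted p = 0.358). The H3K27ac peaks were 12026, 3053 and 11821 bp wide with coverage of 14.7, 17.6 and 15.3 times the genome mean, and 98.6%, 99.4% and 97.0% of the peaks of their lists had lower coverage. In replicates 1 and 3 the peak took in most of the gene, which is 14155 bp long (chr11:100956733-100970887, minus strand). The pooled H3K27ac peak, chr11:100959552-100971437, was 11886 bp. H3K4me1 had at the start no peak in replicate 1 and short ones of 213 and 264 bp in replicates 2 and 3, and the pooled one, chr11:100970876-100971140, held the whole of the Cavin1 sequence printed above. Inside the gene the mark was broad, with peaks of 8140, 4548 and 8090 bp in the 3 replicates, and the stretch shared by all 3 began 3621 bp past the start. Upstream, all 3 H3K4me1 lists shared a stretch from −4767 to −3627 bp of the start.

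Cav1, the caveolin that scaffolds caveolae outside striated muscle, had its H3K27ac over the first exons. Its 7 coding starts merged into a window of 3306 bp, covered to 77.2%, 75.1% and 67.8% in H3K27ac replicates 1, 2 and 3 and to 31.6%, 22.8% and 43.2% in those of H3K4me1. No H3K4me1 list reached the lowest H3K27ac list, and the means differed by 40.8 percentage points (exact permutation p = 0.1, adjusted p = 0.358). In the pooled lists the gap was nearly gone, at 74.3% in H3K27ac and 73.5% in H3K4me1. The H3K27ac peaks were 3248, 10037 and 2871 bp wide at 15.9, 10.5 and 16.7 times the genome mean, and all 3 lists shared the stretch from 65 to 2935 bp past the outermost start. H3K4me1 was shared by its 3 lists from 2163 to 2373 bp past the start and again from 3461 bp on. The pooled H3K4me1 peak joined these parts into 16171 bp (chr6:17306212-17322382), against 5737 bp in the pooled H3K27ac peak.

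Cav2, the partner of CAV1 in hetero-oligomers, lies upstream of Cav1 on the same strand, and the Cav1 start is 25.15 kb past its own. It was the member at whose outermost start every list of both marks had a peak. At the outermost start, 3 members were under H3K27ac in all 3 replicates, Cav2, Cavin1 and Dag1, against 24.7% of all genes, and 1 was under H3K4me1 in all 3, Cav2, against 3.4%. The Cav2 window was covered to 38.3%, 100% and 50.6% in H3K27ac replicates 1, 2 and 3 and to 100%, 96.6% and 50.7% in those of H3K4me1. The groups overlapped, with a difference of −19.5 percentage points (exact permutation p = 0.5), and in the pooled lists the order was the other way, 85.0% in H3K27ac and 73.7% in H3K4me1. In replicate 3 the peaks at the start were nearly the same in both marks, chr6:17280595-17281552 for H3K27ac and chr6:17280595-17281553 for H3K4me1, and these lists were called against the same IgG library.

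Cavin2, the cavin that helps shape the caveolar membrane, was marked past its start more than at it. Its window was covered to 22.5%, 0% and 66.0% in H3K27ac replicates 1, 2 and 3 and to 27.7%, 0% and 66.0% in those of H3K4me1. The order of the replicates was the same in both marks, and the difference of −1.73 percentage points was far within their spread (exact permutation p = 1). In replicate 2 the first peaks past the start began 1177 bp from it in H3K27ac and 1188 bp from it in H3K4me1, beyond the end of the window. The start itself was under a peak in replicate 3 of both marks and in H3K4me1 replicate 1. Why replicate 2 had none there was not tested. All 3 H3K27ac lists shared the stretch from 1177 to 1967 bp past the start, and all 3 H3K4me1 lists that from 1188 to 1687 bp. The pooled peaks, 5433 bp for H3K27ac and 6661 bp for H3K4me1, spanned the start and the first part of the gene, and covered 72.6% and 99.5% of the window.

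**Figure D3:**
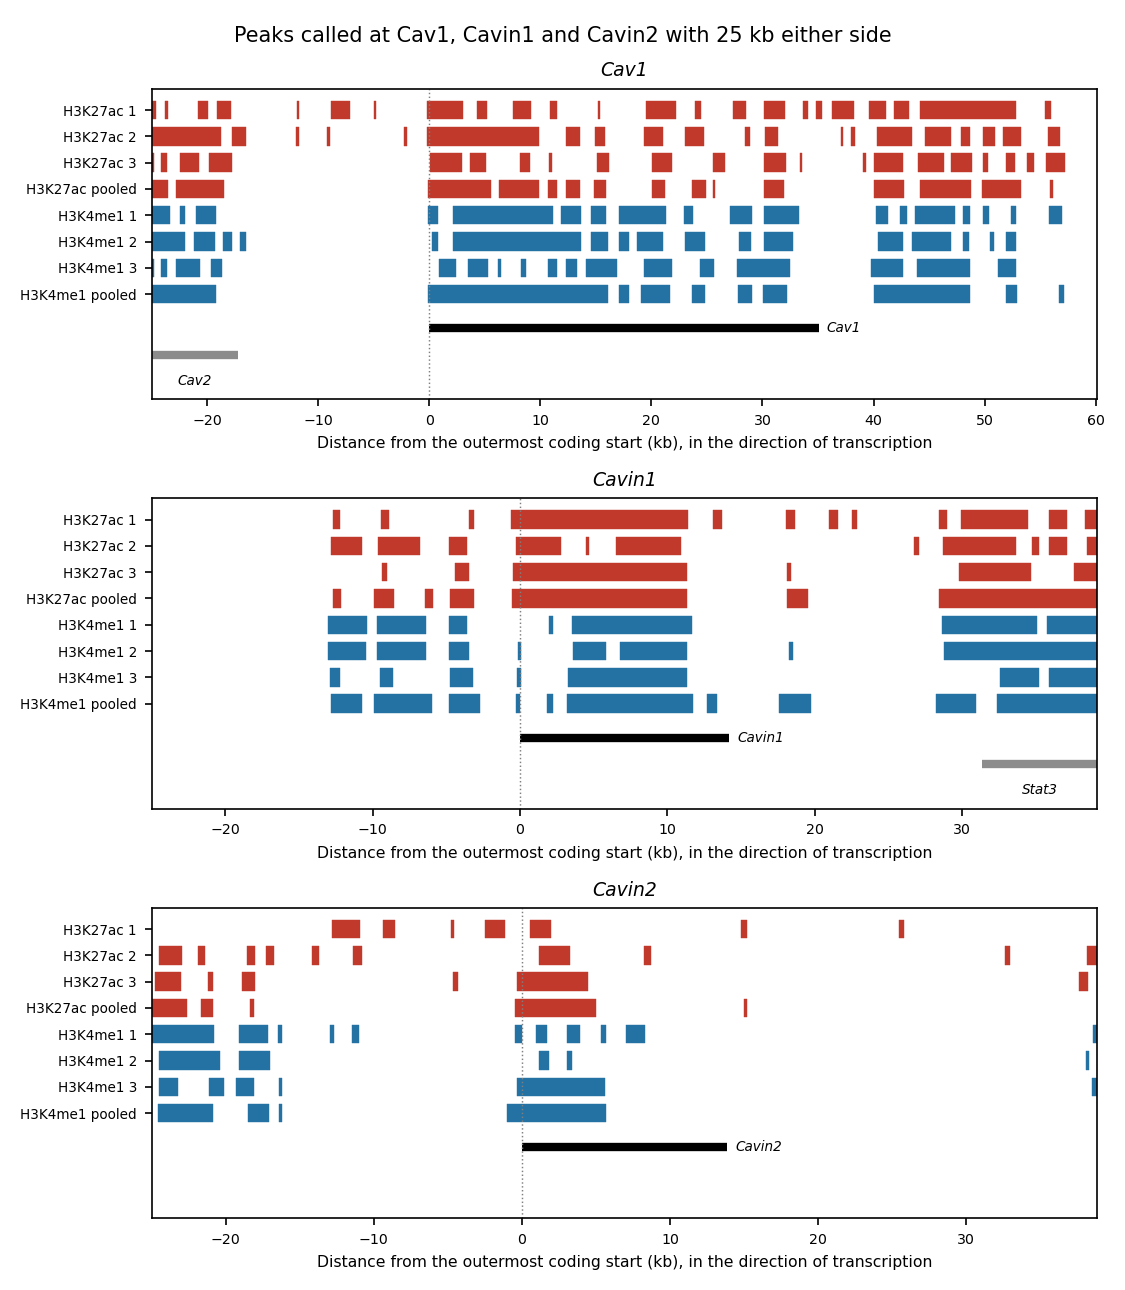
Peaks in the loci of Cav1, Cavin1 and Cavin2, a row for each of the 3 replicate lists and the pooled list of each mark (red H3K27ac, blue H3K4me1), against distance from the outermost coding start in kb; black bars are the bodies of the named genes and gray bars those of neighbors. Peaks crowd the Cav1 gene and its flank, long peaks fill most of Cavin1, and those of Cavin2 gather at and past the start and, in every list but H3K27ac replicate 1, around the distal regions at −23.8 and −18.3 kb.

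Among the sarcoglycans, Sgce and Sgcb had promoter peaks in most lists. Sgce, the sarcoglycan of smooth muscle and many other tissues, shares its promoter window with Peg10, which is read in the opposite direction, so the peaks could not be assigned to either. The window was covered to 31.3%, 17.5% and 43.9% in H3K27ac replicates 1, 2 and 3 and to 15.3%, 16.4% and 0% in those of H3K4me1. The groups did not overlap, though the lowest H3K27ac value was only just above the highest H3K4me1 value (difference 20.3 percentage points, exact permutation p = 0.1, adjusted p = 0.358), and with windows of 3 kb the difference was −0.356. The peaks were short, 655, 367 and 919 bp for H3K27ac and 320 and 344 bp for H3K4me1. A second place, about the start of a non-coding Sgce transcript within chr6:4739207-4741207, had H3K4me1 over 68.1%, 69.2% and 37.8% of it in the 3 replicates and H3K27ac over 0%, 30.3% and 0%.

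Sgcb, the core sarcoglycan without which the others are not held in the membrane, was covered to 25.3%, 41.8% and 0% in H3K27ac replicates 1, 2 and 3 and to 42.1%, 42.4% and 0% in those of H3K4me1. Replicate 3 had no peak in either mark, and the groups overlapped (exact permutation p = 0.6). The H3K4me1 peaks of replicates 1 and 2 and the H3K27ac peak of replicate 2 were nearly the same, with starts from 73647076 to 73647087 and ends from 73647917 to 73647923 on chromosome 5, and all 3 lists were called against the same IgG library. H3K27ac replicate 1, called against another IgG library, also had a peak there, chr5:73647055-73647560, at 10.0 times the genome mean. Upstream of Sgcb, at the Spata18 promoter, H3K4me1 peaks of 2799, 2242 and 899 bp stood in replicates 1, 2 and 3 and an H3K27ac peak of 1298 bp in replicate 2, and the 3 H3K4me1 lists shared the stretch from −3027 to −2246 bp of the Sgcb start.

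Sgcd, a sarcoglycan of both smooth and striated muscle, spans 1092717 bp and has 2 coding starts far apart. Its outermost coding start, and the starts of its longer non-coding transcripts, had no peak within 1 kb in any list. The inner window, chr11:47378522-47380522, was covered to 24.0%, 0% and 1.80% in H3K27ac replicates 1, 2 and 3 and to 0%, 0% and 20.6% in those of H3K4me1. A peak of replicate 3 had the same ends in both marks, chr11:47378200-47378557, where 24 peaks in all shared both ends between these lists, which used the same IgG library. Whether the IgG library had a part in these like peaks was not tested.

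Sgca, the sarcoglycan known chiefly from striated muscle, and Cav3, the caveolin of striated muscle, were without promoter peaks. The nearest peak upstream of the outermost Sgca start ended at −13058, −4022 and −12998 bp in H3K27ac replicates 1, 2 and 3 and at −2824, −13969 and −17524 bp in those of H3K4me1. The Sgca gene body itself held 1 replicate peak, of 355 bp in H3K4me1 replicate 1, at its 3′ end. Wide peaks of the locus lay at promoters of its neighbors, with H3K27ac peaks of 2434, 5179 and 2936 bp at that of Ppp1r9b in replicates 1, 2 and 3 and a pooled H3K27ac peak of 6618 bp at that of Col1a1, the gene of a fibrillar collagen chain. Others lay at no coding promoter, such as H3K27ac peaks of 565 and 419 bp in replicates 1 and 3 and an H3K4me1 peak of 893 bp in replicate 3, which began 17843, 18115 and 17597 bp past the Sgca start. The Cav3 gene body held 1 replicate peak, of 285 bp, in H3K4me1 replicate 1. In its flank, the promoter of Oxtr, which encodes the oxytocin receptor, had H3K4me1 peaks of 493 and 303 bp in replicate 1 and of 319 bp in replicate 2 and no replicate H3K27ac peak, while the pooled lists had 1379 bp of H3K27ac and 2225 bp of H3K4me1 there. With windows of 3 kb the count of members without a promoter peak fell to 1, and no share of all genes is given for these windows.

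**Figure D4:**
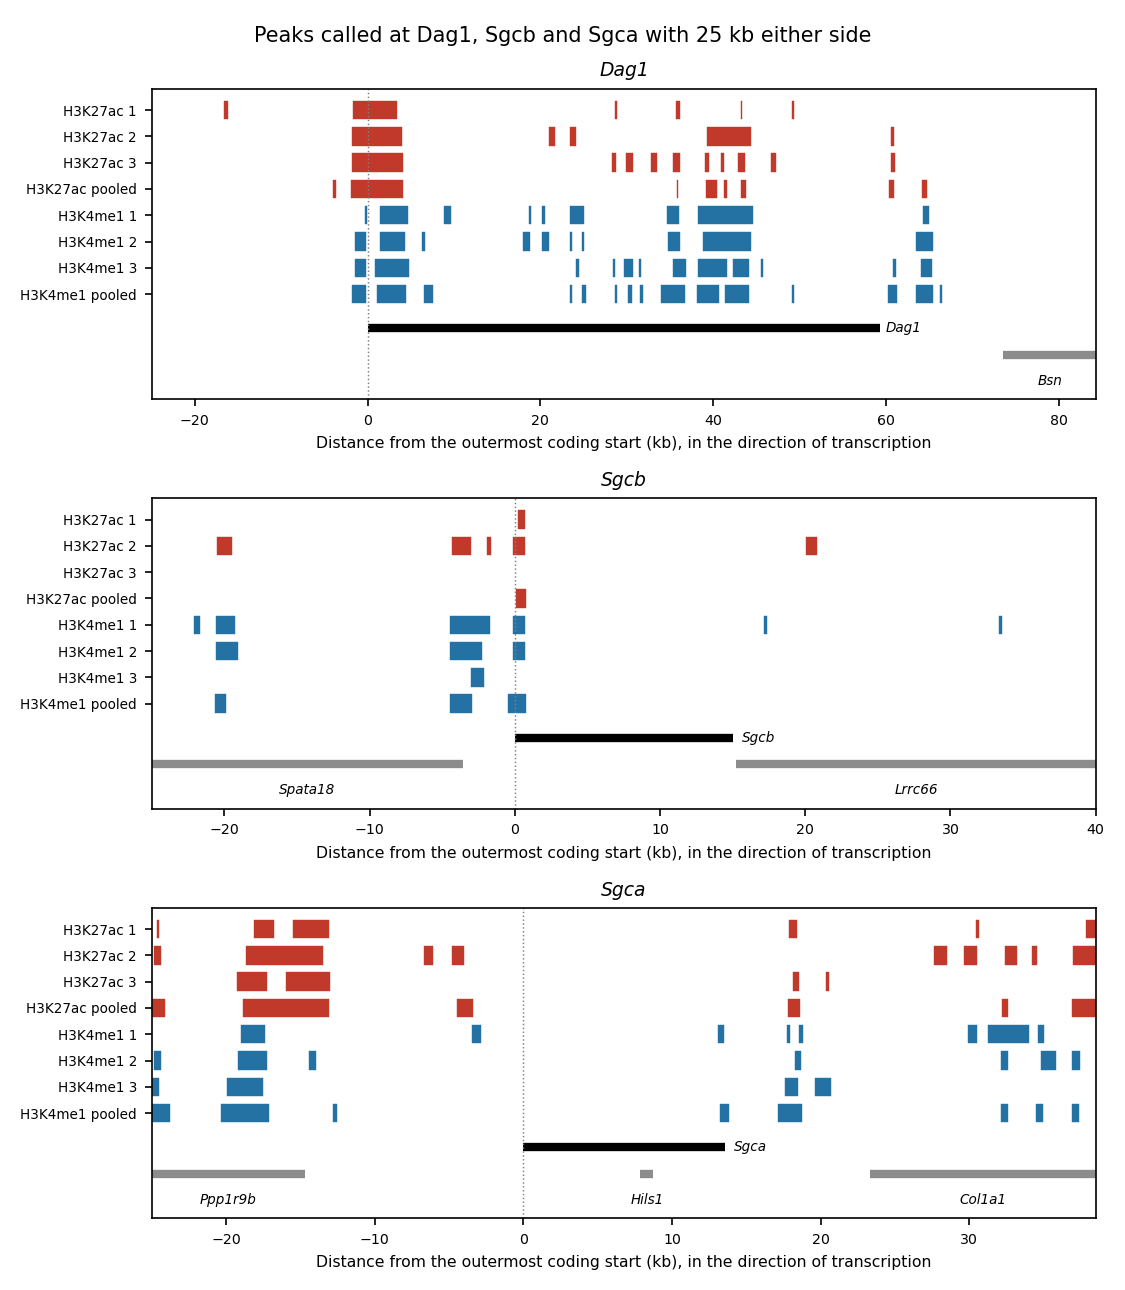
Peaks in the loci of Dag1, Sgcb and Sgca, drawn as for the caveolar genes, with distance from the outermost coding start in kb on the x axis and a row per list. Dag1 has a wide H3K27ac peak at its start with H3K4me1 on both sides and further H3K4me1 inside the gene, Sgcb has few peaks, and those of the Sgca locus lie outside the Sgca gene, apart from an H3K4me1 peak at its 3′ end in replicate 1 and in the pooled list.

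The second question was how much of the whole locus each mark covered. The median member locus was covered to 10.6% by H3K27ac and 11.4% by H3K4me1, against 4.71% and 3.97% over all 21853 loci. The members split into 3 with dense cover, Cav1, Cav2 and Cavin1, and 7 with far less. Mean cover was higher in H3K4me1 for 8 of 10 members, against 37.9% of all loci. The order of the medians did not hold under every setting: the difference in the mean of the list medians, −1.14 percentage points, was 0.83 with only peaks from a −log10 p-value of 1.3 up, 0.566 with lists of the same length and 0.987 between the lists that used IgG replicate 2, but −1.32 between those that used IgG replicate 3. However, the lists of the marks failed to overlap for 1 member alone, Dag1, with H3K4me1 above, against 12.0% of all loci, and for 0 members with H3K27ac above, against 17.2%, so the member count lay near or under that of all genes. Without H3K4me1 replicate 3 the first count was 4, and without H3K27ac replicate 1, H3K27ac replicate 2 or H3K4me1 replicate 2 it was 2. The second count was 1 without H3K4me1 replicate 1 or replicate 2. With a list left out, the marks fail to overlap more easily, and no share of all loci is given for that setting. These counts therefore cannot be set against 12.0% and 17.2%. Adjusted p-values of the exact permutation test ran from 0.342 to 0.989.

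The Cav1 locus was covered to 38.5%, 42.5% and 31.6% in H3K27ac replicates 1, 2 and 3 and to 41.4%, 42.3% and 35.9% in those of H3K4me1. Means were 37.5% ± 5.51 (SD, n = 3) and 39.9% ± 3.46 (SD, n = 3), overlapping (exact permutation p = 0.7). Of all loci, 99.4% had less H3K27ac cover and 99.6% less H3K4me1 cover. Over the gene body alone the difference, H3K27ac minus H3K4me1, was −19.5 percentage points with no overlap of the lists (exact permutation p = 0.1). Cav2 was covered to 29.6%, 42.0% and 30.8% by H3K27ac and to 28.9%, 37.0% and 27.1% by H3K4me1 in replicates 1, 2 and 3. Cav2 thus stood with Cav1, whose locus partly overlaps its own, above 99.1% and 98.4% of loci.

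The Cavin1 locus was covered to 35.2%, 33.6% and 31.0% in H3K27ac replicates 1, 2 and 3 and to 39.6%, 38.9% and 27.1% in those of H3K4me1. The means of 33.3% ± 2.13 and 35.2% ± 7.00 (SD, n = 3) overlapped (exact permutation p = 0.7), and 99.0% and 99.1% of loci had less cover. Part of it lay at Stat3, a transcription factor gene in the downstream flank, where the pooled H3K27ac peak was 11774 bp. Over the gene body alone the Cavin1 difference was 17.2 percentage points toward H3K27ac (exact permutation p = 0.3), and with the peaks from 1.3 up it was 8.81 over the locus (exact permutation p = 0.1).

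Dag1 was covered to 5.99%, 11.6% and 10.6% in H3K27ac replicates 1, 2 and 3 and to 13.7%, 14.2% and 14.2% in those of H3K4me1. Means were 9.38% ± 2.98 and 14.0% ± 0.255 (SD, n = 3), and every H3K4me1 list lay above every H3K27ac list (exact permutation p = 0.1, adjusted p = 0.342). At its promoter the order was the opposite, so that H3K27ac held the start and H3K4me1 more of the rest. With the peaks from a −log10 p-value of 1.3 up, the locus difference turned to 0.391.

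The other 6 loci were covered less than those of Cav1, Cav2 and Cavin1. Cavin2 was covered to 10.2%, 12.3% and 13.6% by H3K27ac and to 17.5%, 11.4% and 15.6% by H3K4me1 in replicates 1, 2 and 3. Sgca was covered to 8.59%, 18.2% and 8.68% and to 10.6%, 8.08% and 7.71%, nearly all of it outside the gene. These middle loci overlapped between the marks and had more cover than 72.8% to 87.6% of loci. Sgce ran from 1.73% to 8.16%, Sgcb from 0% to 8.91%, Sgcd from 0.566% to 2.99% and Cav3 from 0% to 2.11% over the 6 lists. For Sgcb, whose locus in H3K27ac replicate 3 had no peak at all, replicate 2 of H3K27ac (6.33%) exceeded replicate 1 (0.778%). By mean H3K27ac cover the order was Cav1, Cav2, Cavin1, Cavin2, Sgca, Dag1, Sgce, Sgcb, Sgcd and Cav3. Neighbors in this order overlapped in their 3 values, apart from Cavin1 and Cavin2 and from Sgcd and Cav3.

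**Figure D5:**
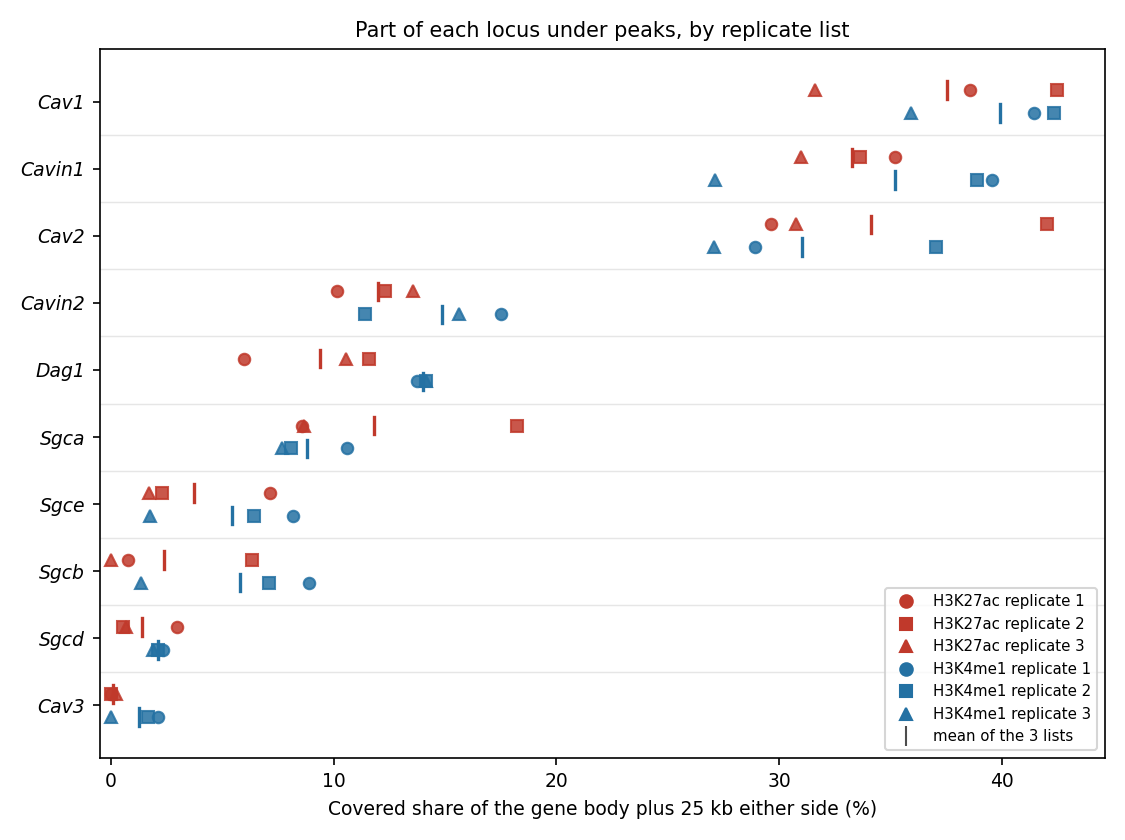
Share of the locus, the gene body with 25 kb on either side, covered by peaks (percent, x axis) for the 10 members (y axis); red is H3K27ac and blue H3K4me1, the symbol shape gives replicates 1 to 3 and the bar the mean. Cav1, Cav2 and Cavin1 lie between 27.1% and 42.5% in every list, above all other members, and Dag1 is the member whose H3K4me1 lists all lie above its H3K27ac lists.

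Peaks in any member locus numbered 131, 86 and 77 in H3K27ac replicates 1, 2 and 3 and 119, 90 and 79 in those of H3K4me1. Many of the peaks of H3K27ac replicate 1 were in Sgcd, with 56 there against 14 and 18 in replicates 2 and 3. Of the 48 pooled H3K27ac peaks in member loci, 24 met a peak of each of the 3 replicates, 50.0% against 39.4% of all pooled H3K27ac peaks. Of the 89 pooled H3K4me1 peaks it was 41, or 46.1% against 43.8%. Sgcd alone took 23 of the 89 pooled H3K4me1 peaks but 2 of the 48 pooled H3K27ac peaks. An H3K4me1 pooled peak met 89.6% of the H3K27ac pooled peaks in member loci, and an H3K27ac pooled peak met 43.8% of those of H3K4me1, near the 84.0% and 47.2% of the whole lists.

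The third question was where both marks met away from promoters. A distal double-marked region was a stretch of H3K27ac covered in at least 2 of 3 replicates that overlapped such a stretch of H3K4me1 and lay outside every protein-coding promoter window. There were 29 of these in the member loci, of 37238 in the genome, and 7 of the 10 loci had at least 1, against 42.3% of all loci. The median was 2 in member loci and 0 in all loci. Cav1 had 11, or 12.9 per 100 kb, Cav2 had 5, or 8.63, and Cavin1 had 5, or 7.79, and 99.3%, 97.2% and 96.5% of loci were less dense. The Cavin1 regions centered 39.2 and 36.5 kb past its start lie in Stat3, and that at 39.2 kb had both marks in all 3 replicates. Dag1 had 4, Sgca, Cavin2 and Sgcd had 2 each, and Cav3, Sgcb and Sgce had 0. Those of Cavin2, centered at −23.8 and −18.3 kb of its start, had H3K4me1 in all 3 replicates and H3K27ac in replicates 2 and 3. Sgcd, with its long introns, had 0.175 per 100 kb. The Cav1 and Cav2 loci share sequence, and a region in both is counted for each but once in the total. The total was 17 without H3K27ac replicate 2 and 4 with the peaks from a −log10 p-value of 1.3 up.

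At 13 of the overlaps all 6 replicate lists had a peak, 10 of them in the joint span of the Cav2 and Cav1 loci, 2 beside Cavin1 and 1 in Dag1. In Cav1 introns they included chr6:17321430-17322171, centered 15.5 kb past the outermost start, and chr6:17336478-17338375, at 31.1 kb. Before Cav2, chr6:17271834-17274092 was centered at −8.22 kb of the start. Much of this chromosome 6 stretch also lies in Gm15581, an antisense non-coding gene. Beside Cavin1 was chr11:100979764-100980309, centered at −9.15 kb of the start. The whole peaks that met it averaged 9.27, 8.31 and 10.8 times the genome mean in H3K27ac replicates 1, 2 and 3. Those of H3K4me1 averaged 9.39, 8.41 and 10.9 times. The peaks were 546, 2912 and 327 bp wide in H3K27ac and 3345, 3333 and 889 bp wide in H3K4me1. In Dag1 the one in all 6 lists was intronic, chr9:108220313-108221103, centered 43.3 kb past the start. The whole peaks that met it averaged 8.32, 6.84 and 7.44 times in H3K27ac and 7.61, 7.82 and 9.38 times in H3K4me1. They were 195, 5094 and 791 bp wide in H3K27ac and 6283, 5536 and 1801 bp wide in H3K4me1. Because these averages are of whole peaks of unlike width, they do not compare the marks within the Cavin1 and Dag1 regions.

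A pair of these regions is shown because each holds TGANTCA, letters that take in the AP-1 core TGACTCA, in capitals, in sequence with both marks. The Cavin1 run holds that core itself, and the run of the Cav2 intron holds TGAATCA, which differs from it in the middle base. In the Cav2 intron H3K27ac came from replicates 2 and 3 and H3K4me1 from all 3. The runs are the 300 bases about the middle of the overlap of the marks, on the plus strand of GRCm38.p6.
Cavin1 upstream (chr11:100979887-100980186): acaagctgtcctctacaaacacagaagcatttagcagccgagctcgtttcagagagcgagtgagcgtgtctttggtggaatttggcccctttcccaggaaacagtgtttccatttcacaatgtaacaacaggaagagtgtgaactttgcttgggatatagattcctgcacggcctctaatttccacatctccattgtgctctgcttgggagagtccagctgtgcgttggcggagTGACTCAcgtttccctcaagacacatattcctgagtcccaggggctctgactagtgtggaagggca
Cav2 intron (chr6:17283954-17284253): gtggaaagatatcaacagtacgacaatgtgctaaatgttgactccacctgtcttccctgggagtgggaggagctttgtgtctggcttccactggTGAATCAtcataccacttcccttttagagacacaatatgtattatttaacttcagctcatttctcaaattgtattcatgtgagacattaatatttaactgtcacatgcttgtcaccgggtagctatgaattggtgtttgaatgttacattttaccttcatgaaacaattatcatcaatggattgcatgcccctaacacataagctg

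Over the middle 300 bases of the overlap in 24 member regions, TGANTCA occurred on either strand in 4, against 14.1% of 22737 such runs in the genome. TATAAA occurred in 3, against 27.7%, and GGGCGG and the CArG box in 0, against 3.21% and 1.93%. A match of letters is no evidence that a factor was bound.

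The remaining genes of the same pathways gave a wider view. The list held 26: other caveolar coat, neck and F-BAR proteins, the other sarcoglycans and sarcospan, dystrophin, utrophin, dystrobrevins, syntrophins, a laminin chain and the enzymes that glycosylate dystroglycan. H3K27ac was at the promoter in all 3 replicates for 19, H3K4me1 for 10 and both for 8, where 45.9%, 27.9% and 24.3% of all genes met these conditions, and 0 lacked a peak in every list. Those with both included Ehd2, an ATPase of the caveolar neck, Pacsin2, an F-BAR protein of caveolae, Dmd and Utrn, which encode dystrophin and utrophin, the syntrophins Sntb1 and Sntb2, and the laminin chain Lama2. Over the 26, the locus cover of H3K4me1 lay above that of H3K27ac without overlap for 7 and below it for 2, where 12.0% and 17.2% of all loci did so. Utrn had a mean of 11.7% in H3K27ac and 21.2% in H3K4me1, and Pacsin2 had 9.09% and 22.7%. Dmd, in one of the longest loci of the genome, had 0.536% and 0.551%. The median locus of the list was covered to 6.25% by H3K27ac and 6.88% by H3K4me1, below the member medians.

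Marker genes were read in the same way to check the label of the cells. Of all genes, 45.9% had promoter H3K27ac in all 3 replicates, 27.9% H3K4me1, 24.3% both, and 32.8% no promoter peak in any replicate. Of 6 smooth muscle markers, H3K27ac was at the promoter in all 3 replicates for 3 and H3K4me1 for 4, with Acta2, Des and Smtn carrying both. Their H3K27ac count thus lay near the share of all genes. Myh11, the smooth muscle myosin and the most specific of them, had no H3K27ac promoter peak in any replicate and H3K4me1 in 1. Both pooled lists had a peak there. Cnn1 had promoter H3K27ac in 1 replicate and H3K4me1 in 2, and no promoter peak in either pooled list. Both genes were singled out after their values were seen. All 4 fibroblast markers had H3K27ac in all 3 replicates, and Dcn, Lum and Col1a1 had both marks. The median locus cover by H3K27ac was 25.1% over the fibroblast markers, with a range of 10.8% to 43.7%, and 7.51% over those of smooth muscle, with a range of 1.51% to 18.1%. It was 7.12% for blood, 5.24% for endothelium, 4.57% for adipocytes, 4.34% for epithelium and 1.55% for striated muscle. In H3K4me1 the medians were 28.0% for fibroblasts, 6.15% for epithelium, 5.22% for smooth muscle and 4.82% for endothelium. They were 3.32% for blood, 2.69% for adipocytes and 0.693% for striated muscle. Of 6 striated muscle markers, 1 had H3K27ac in all 3 replicates and 3, Myod1, Myog and Ckm, had no promoter peak, as was the case for Cav3 and Sgca. Of 6 endothelial markers 1 had H3K27ac in all 3 replicates and 0 had H3K4me1 in all 3. Of 6 epithelial markers 0 had H3K27ac and 1 had H3K4me1 in all 3, and Epcam and Pax8 had neither in any replicate, though Pax8 had a peak in the pooled H3K27ac list. Adipoq, Plin1, Lep and Cidec, the adipocyte markers, had no promoter peak, nor did Cd3e, Cd79a and Csf1r of the 4 blood markers, of which 1 had H3K27ac in all 3 replicates. Mean locus cover in H3K27ac ranged from 0% to 18.8% over the striated muscle markers, from 1.25% to 11.0% over those of endothelium, from 1.35% to 27.9% over those of epithelium, from 0.262% to 8.45% over those of adipocytes and from 0.365% to 18.7% over those of blood. In H3K4me1 the ranges were 8.53% to 45.3% for fibroblasts, 2.66% to 14.7% for smooth muscle, 0% to 9.01% for striated muscle, 1.77% to 9.57% for endothelium, 1.31% to 27.4% for epithelium, 1.40% to 4.58% for adipocytes and 0% to 15.6% for blood. Caveolae are also plentiful in fibroblasts, endothelium and fat, and the part of other cells in the member values was not tested.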

How the data were processed

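ChIC-Seq of H3K27ac, H3K4me1 and IgG was performed in 3 libraries each. Per the labels, the authors used cutadapt, Bowtie2 and MACS2 on GRCm38.p5, with versions not given there. Per the file headers, broad peaks were called by MACS 2.2.7.1 on paired, unique fragments without duplicates, with the larger library of each pair scaled to the smaller, the IgG library. A peak's deposited pileup is a signal averaged over the peak, its fold enrichment is a ratio of pileup to background with 1 added to each, and its −log10 p-value is the mean over the peak. Because 11.3 to 25.2 treatment fragments stood for each IgG fragment, peak height rests on scaled values, and weak IgG coverage limits each call. The lists hold no reads, so no count test or depth interval was possible. The headers state that q-values were not calculated, and the q-value column was not used.

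Genes and starts were those of GENCODE M 21, 54361 coding starts in all. Covered share is the percent of a window's bases under peaks, and coverage is pileup divided by its genome mean, for a genome of 2300000000 bases. Shares were compared by the two-sided exact permutation test with Benjamini-Hochberg adjustment over all genes, in Python 3.11.15 with numpy 2.4.6, pandas 2.3.3 and matplotlib 3.10.9, and the steps were tested on simulated data. Members and lists were chosen with earlier results of these data known. Every member was described. Myh11 and Cnn1 were named after their values were seen. Other pathway and marker genes were named if all 6 replicate lists, or 0 of them, had a promoter peak, and neighbors if their promoter lay under a described peak. Not every gene that this rule names is reported here. Alternatives changed windows, flanks, peak filters, overlaps and replicates. The IgG libraries were used only as the controls of the calls.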

Additional observations from a re-analysis of the deposited data

How the results depend on the processing

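Of the alternatives to the counts and medians, 77 values stayed within 1.5 times the count or within the spread between replicates and 34 moved; for single members 235 stayed, 33 moved and 2 turned, where turning was counted only for differences whose lists did not overlap, and the causes were not tested. The summary differences below are H3K27ac minus H3K4me1 in the mean, over the 3 lists of a mark, of the median covered share of the 10 members; taking the mean of each member first gives medians of 30.2% and 19.4% for promoters and 10.6% and 11.4% for loci, so the order of averaging alone moves the promoter difference by more than 2-fold. With promoter windows of 3 kb, 7 members had H3K4me1 in all 3 replicates, 5 had both marks and 1 had none, the promoter summary difference was 12 percentage points, against 22.8 with windows of 1 kb, and the Sgce promoter difference turned to −0.356. With only peaks from a −log10 p-value of 1.3 up, 3 members had H3K27ac and 0 had both, loci without overlap were 2 with H3K27ac above and 0 with H3K4me1 above, the summary differences were 14.7 for promoters and 0.83 for loci (−1.14 with all peaks), Dag1 turned to 0.391 over its locus, and distal regions with both marks were 4, against 29. Asking for at least 2 of 3 replicates gave 8 members with H3K27ac, 7 with H3K4me1 and 7 with both, and the pooled lists gave 8 with H3K4me1 and 7 with both. Over the gene body alone, 2 loci had H3K4me1 above and the summary difference was −3.42. With lists cut to the same number of peaks, 1 locus had H3K27ac above and 2 had H3K4me1 above, with a summary difference of 0.566. Regions rebuilt from bases covered in all 3 replicates of each mark numbered 19, of which 14 lay inside 13 of the 29 and 5 outside them, where the wider stretch of either mark had reached a promoter window. Leaving out each replicate in turn gave 5 to 7 members with H3K27ac, 4 to 5 with H3K4me1, 3 to 4 with both and 2 with none, 0 to 1 loci with H3K27ac above and 1 to 4 with H3K4me1 above, summary differences from −2.21 to −0.168 for loci and from 16.7 to 26.2 for promoters, and 17 to 31 distal regions. Between lists called against the same IgG library, the summary differences for loci were 0.987 for IgG replicate 2 and −1.32 for IgG replicate 3, and those for promoters 17.2 and 35.5. With the replicate number as a block, an alternative chosen after seeing the data for this count, 1 locus had H3K27ac above and 3 had H3K4me1 above in every pair. The smallest p of sign flips is 0.25. Deviations from the group means correlated at −0.0874, 0.335 and 0.493 between lists of the same number over 19981 loci, so the number was not taken to pair the lists; all pairs with the same IgG library, those of numbers 2 and 3 included, correlated at 0.335 to 0.493. Shares of all genes are given for the main setting, and for each mark in the pooled promoter lists, alone. The other counts under the alternatives have no such share beside them. Weak peaks at the depth of the IgG libraries limit what an absent or present promoter peak can show.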
